A study of Mus musculus with 8 samples.

Results

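The signalling genes of the bone morphogenetic protein (BMP) and transforming growth factor beta (TGF-beta) families were described in cells sorted from resting mouse hair follicles. They were taken as a list of 41 genes of ligands, receptors, SMADs, antagonists, latency proteins and target genes. Each gene was read from the probe set that the array annotation gives to it alone, and from the brightest over the 8 arrays where there were several. All 41 were found among 18193 named genes. The cells came from Tet-on Runx1 transgenic mice, labelled Runx1 iTG, and from wild-type (WT) mice. The 4 groups were Runx1 iTG hair germ, WT hair germ, Runx1 iTG bulge and WT bulge, each with 2 arrays labelled as biological replicates. All mice, WT included, received doxycycline food (1 g in each kg) over 1 day, and the treatment label gives repression of H2BGFP as its purpose. Cells of all groups were sorted as positive for keratin 15-GFP and α6-integrin. Those negative for CD34 were labelled hair germ and those positive for CD34 bulge. Mice were at postnatal day 20, except replicate 2 of both transgenic groups, which is labelled day 21. The promoter that drives the transgene, and whether the 2 populations of a replicate came from the same mice, are not given in the sources used here. By sex-linked signals, replicate 1 was male in all 4 groups and replicate 2 in 0, so the spread between replicates includes sex.

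BMP and TGF-beta ligands are secreted dimers that bring type I and type II receptor kinases together at the cell surface. The receptors phosphorylate SMAD proteins, which join Smad4 and enter the nucleus. BMP ligands act mainly through Smad1, Smad5 and Smad9, and TGF-beta and activins through Smad2 and Smad3. In the resting follicle, BMP signalling is known to hold stem cells quiescent, and its antagonists and TGF-beta2 are known to help start the next hair. The ID genes are classical targets of BMP and encode proteins that block basic helix-loop-helix transcription factors.

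The deposited medians of the 8 arrays lay between 101.7 and 162, and 69.0% to 77.0% of probe sets on each array were above background. Background was 31.1, the 95th percentile of bacterial control probe sets on the scaled arrays, and signals are intensities on that linear scale. Where the dimmer group lay below it, the fold is given as at least the brighter mean over 31.1. Runx1 read 12103 and 12878 in Runx1 iTG hair germ, against 495 and 489 in WT hair germ, and 19454 and 13694 in Runx1 iTG bulge, against 658 and 903 in WT bulge. It was 25.4-fold brighter in transgenic hair germ and 21.2-fold in transgenic bulge (adjusted p = 8.46e-05 and 0.000147), as the genotype labels have it. Cd34 read 2.41 and 5.24 in Runx1 iTG hair germ and 3.77 and 53.1 in WT hair germ, against 4901 and 8593 in Runx1 iTG bulge and 7077 and 11204 in WT bulge, which matches the sort gate. Of 6 genes listed as hair germ markers, 0 were called higher in the cells labelled hair germ and 4 were called lower, namely Cdh3, Krt5, Lef1 and Lgr5. Of 8 bulge markers, 7 were called lower there. Lgr5 stands on both lists, and Shh of the hair germ list was below background in 3 of the 4 groups. The name hair germ is therefore used here as the label of the CD34-negative sort only.

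Promoters are shown for 5 members that differed between the populations and had 1 entry in the RefSeq promoter table (build GRCm38.p6): the antagonist gene Grem1, with the widest difference, the target genes Id2, Id3 and Id4, which fell together, and the receptor gene Tgfbr2, which rose. Each run holds the 250 bases before the annotated start, 5′ to 3′ on the gene's own strand. Capitals mark GGCGCC, a GC-rich element known to bind SMAD1 and SMAD5, and GTCT or its reverse complement AGAC, the short SMAD box.
Grem1 (chr2:113758649-113758898, minus strand): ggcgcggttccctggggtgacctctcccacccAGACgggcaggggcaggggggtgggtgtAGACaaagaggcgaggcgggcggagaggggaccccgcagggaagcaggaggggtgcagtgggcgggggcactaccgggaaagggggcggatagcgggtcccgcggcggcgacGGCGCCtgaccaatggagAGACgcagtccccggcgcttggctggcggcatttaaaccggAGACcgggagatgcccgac
Id2 (chr12:25096093-25096342, minus strand): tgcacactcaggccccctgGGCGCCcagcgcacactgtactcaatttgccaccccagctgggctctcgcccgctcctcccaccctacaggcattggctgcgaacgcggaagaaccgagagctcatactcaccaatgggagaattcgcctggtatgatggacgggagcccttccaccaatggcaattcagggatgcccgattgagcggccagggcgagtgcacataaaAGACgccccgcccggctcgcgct
Id3 (chr4:136143572-136143821, plus strand): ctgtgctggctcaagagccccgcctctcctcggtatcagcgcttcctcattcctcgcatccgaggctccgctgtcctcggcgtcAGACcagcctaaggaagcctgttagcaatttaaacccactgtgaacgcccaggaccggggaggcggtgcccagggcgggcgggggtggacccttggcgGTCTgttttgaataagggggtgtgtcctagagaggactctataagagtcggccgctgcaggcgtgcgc
Id4 (chr13:48260866-48261115, plus strand): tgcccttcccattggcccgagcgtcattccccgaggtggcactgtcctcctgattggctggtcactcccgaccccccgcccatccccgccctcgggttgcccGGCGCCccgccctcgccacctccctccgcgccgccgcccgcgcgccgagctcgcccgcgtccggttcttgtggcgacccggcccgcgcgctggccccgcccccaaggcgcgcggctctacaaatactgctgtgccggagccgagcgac
Tgfbr2 (chr9:116175364-116175613, minus strand): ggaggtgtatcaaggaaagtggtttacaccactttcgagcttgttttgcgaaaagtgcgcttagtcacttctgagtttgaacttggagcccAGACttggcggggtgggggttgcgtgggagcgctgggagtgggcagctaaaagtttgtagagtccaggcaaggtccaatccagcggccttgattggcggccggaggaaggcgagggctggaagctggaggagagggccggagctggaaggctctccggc

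The GC-rich element occurred once each in the Grem1, Id2 and Id4 windows and 0 times in those of Id3 and Tgfbr2. On both strands it was held by 9.6% of 32851 promoter windows of this length. Of the 28 member genes with an entry, 9 held it. For this and the other motifs below, members are counted as genes and the background as windows, so the shares are not directly comparable. The element is all G and C, and the GC content of the windows shown ran from 58.4% (Tgfbr2) to 75.6% (Id4). The median over all promoters was 52.4%. Whether members held the element more often than promoters of like GC content was not tested. The 4-base SMAD box was present in 82.9% of all windows and in 24 of the 28 member genes. It stood 4 times before Grem1, 2 times before Id3, once each before Id2 and Tgfbr2, and 0 times before Id4. The RUNX core TGTGGT or its reverse complement was in 14% of all windows and, among the members, in that of Ltbp1 alone. These matches describe letters in these windows and no binding was measured.

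The main contrast among the members was between the populations. The cells labelled hair germ had lower signal than bulge for most of the secreted antagonists, for both Ltbp genes and for all 6 target genes. They had higher signal for Bmp4, Tgfbr2 and Tgfbr3. Averaged over both genotypes, 18 of the 41 fell and 3 rose in hair germ at an adjusted p under 0.05 (limma, Benjamini-Hochberg over all 18193 genes). Over all genes, 9.11% were lower and 9.17% higher by the same rule, 18.3% in all, against 51.2% of the members. The median difference of the members was −0.78 on the log2 scale, against −0.09 over all genes. RNA was taken from sorted cells in bulk, so fewer cells with a transcript and less of it per cell cannot be told apart.

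**Figure D1:**
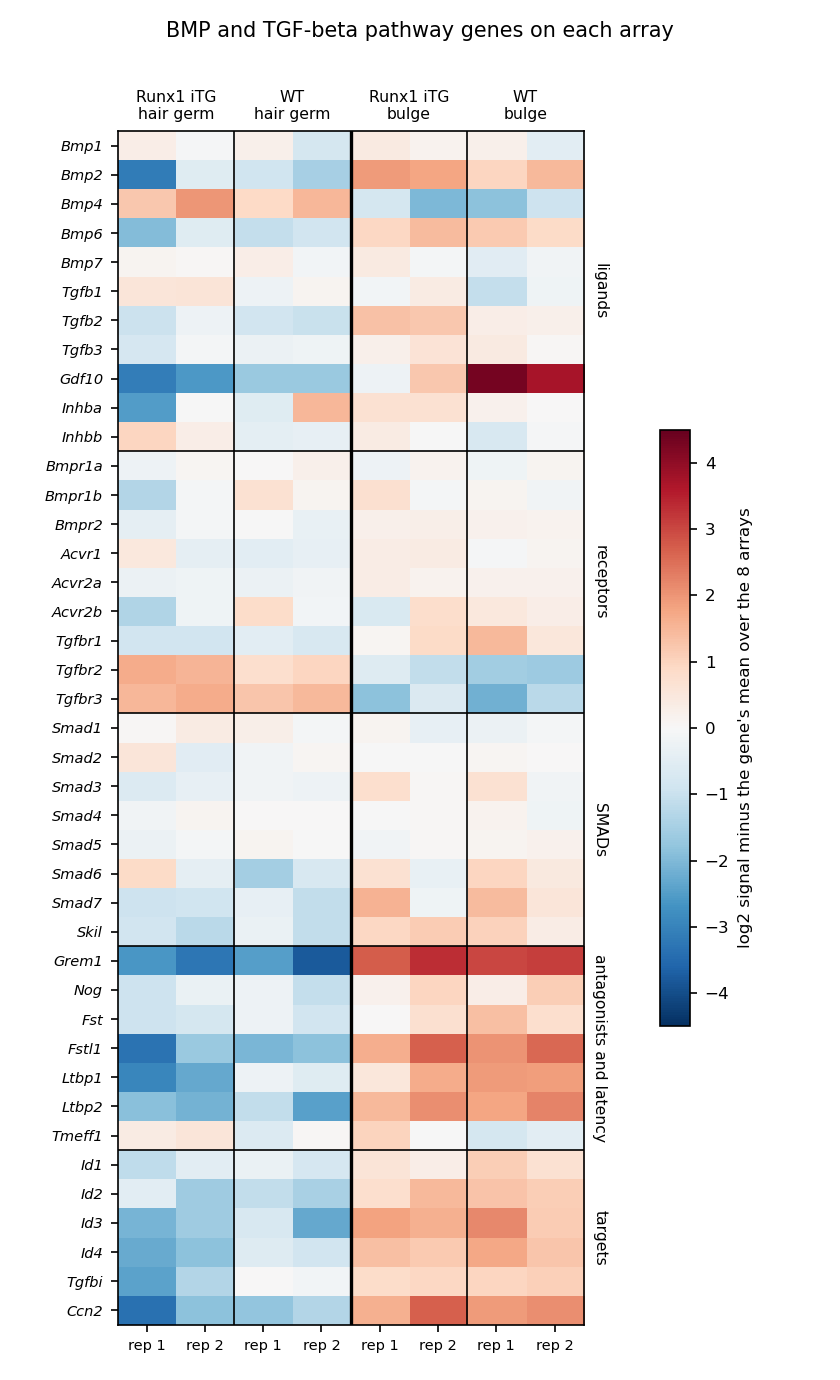
Each row is 1 of the 41 members, ordered by role, and each column 1 of the 8 arrays; colour gives the log2 signal minus the gene's mean over the 8 arrays, red above and blue below it. Hair germ arrays stand left of the heavy line and bulge arrays right of it, and the target genes and most antagonists change colour at that line, while Bmp4, Tgfbr2 and Tgfbr3 change the other way.

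All 6 target genes fell in hair germ, and for each of them the 4 hair germ arrays lay below the 4 bulge arrays, as they did for 11.6% of all genes. Id4, which encodes an inhibitor of basic helix-loop-helix factors, read 668 and 897 in Runx1 iTG hair germ and 2164 and 1744 in WT hair germ, against 8265 and 7315 in Runx1 iTG bulge and 10654 and 7665 in WT bulge. Its mean was 1226 in hair germ and 8382 in bulge (log2 difference −2.77, SE 0.18, adjusted p = 1.23e-05). Transgenic hair germ was the dimmest group for Id4, with no overlap with WT hair germ. The other 2 probe sets of Id4 fell as well, with log2 differences of −4.04 and −4.49.

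Id3 read 403 and 562 in Runx1 iTG hair germ and 1049.7 and 346 in WT hair germ, against 5939.6 and 5161 in Runx1 iTG bulge and 7725 and 3805 in WT bulge. The 2 WT arrays of each population stood far apart, yet the gap to the other population was wider (log2 difference −3.36, SE 0.35, adjusted p = 0.000161). Id2 read 992 and 449 in Runx1 iTG hair germ and 645 and 506 in WT hair germ, against 2336 and 3825 in Runx1 iTG bulge and 3349 and 2942 in WT bulge, a 4.96-fold difference (log2 difference −2.31, SE 0.27, adjusted p = 0.000328). Id1 differed least of the 4 ID genes, at 649.9 and 1014 in Runx1 iTG hair germ and 1152 and 839 in WT hair germ, against 2114 and 1759 in Runx1 iTG bulge and 3049 and 2293 in WT bulge (log2 difference −1.34, SE 0.21, adjusted p = 0.00189). It was still called within each genotype, with an adjusted p of 0.0272 in Runx1 iTG and 0.0194 in WT.

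Ccn2 encodes connective tissue growth factor, a matrix-associated protein induced by TGF-beta and by YAP. It read 238 and 681 in Runx1 iTG hair germ and 717 and 989.6 in WT hair germ, against 7471 and 15916 in Runx1 iTG bulge and 9301 and 10549.7 in WT bulge, and fell 17.8-fold in hair germ (log2 difference −4.16, SE 0.34, adjusted p = 3.53e-05). Tgfbi encodes a TGF-beta-induced matrix protein that binds integrins and collagens. Its signals were 1153 and 2434 in Runx1 iTG hair germ and 6205 and 5561 in WT hair germ, against 10937 and 11739.5 in Runx1 iTG bulge and 11998 and 12774 in WT bulge. The averaged difference was called (log2 difference −1.92, SE 0.22, adjusted p = 0.000294), with all 4 probe sets lower. Within a genotype it passed in Runx1 iTG (−2.76, adjusted p = 0.000658) and did not in WT (−1.08, adjusted p = 0.0711). The change of the population difference with genotype was not called for Tgfbi (−1.68, SE 0.44, adjusted p = 1).

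Of the 7 antagonist and latency genes, 5 fell, 0 rose and 2 did not pass. Grem1 encodes gremlin 1, a secreted protein that binds BMP2 and BMP4 and keeps them from their receptors. It read 149 and 96.1 in Runx1 iTG hair germ and 167 and 67.4 in WT hair germ, against 6039 and 9222 in Runx1 iTG bulge and 7338 and 7939 in WT bulge. The lowest bulge array was far above the highest hair germ array, and the genotypes overlapped within each population. The averaged difference was 67.1-fold (log2 difference −6.07, SE 0.30, adjusted p = 3.03e-06), the widest of the 41 members. It was −5.96 in Runx1 iTG and −6.17 in WT (SE 0.42 each).

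Fstl1, a secreted follistatin-like glycoprotein, read 46.6 and 148 in Runx1 iTG hair germ and 112 and 133 in WT hair germ, against 1455 and 3036 in Runx1 iTG bulge and 1919 and 2826 in WT bulge. It fell 22-fold in hair germ (log2 difference −4.46, SE 0.38, adjusted p = 5.14e-05), and a further probe set had a log2 difference of −4.07. Fst encodes follistatin, which traps activins, and read 780.0 and 854 in Runx1 iTG hair germ and 1253 and 805 in WT hair germ, against 1481 and 2427 in Runx1 iTG bulge and 3733 and 2523 in WT bulge. All hair germ arrays were below all bulge arrays for Fst (log2 difference −1.41, SE 0.23, adjusted p = 0.00241). Noggin (Nog), a BMP trap, was dim in every group, at 44.8 and 68.9 in Runx1 iTG hair germ and 73.3 and 40.9 in WT hair germ, against 97.4 and 165 in Runx1 iTG bulge and 105 and 186 in WT bulge. Its difference did not pass (−1.27, adjusted p = 0.0831). Tmeff1, a transmembrane protein with follistatin-like modules, did not pass either (0.16, adjusted p = 0.8).

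Ltbp1 encodes a protein that binds latent TGF-beta and anchors it in the extracellular matrix. Ltbp2 encodes a member of the same family that is found with elastic fibres and does not itself bind latent TGF-beta. Ltbp2 read 439 and 366 in Runx1 iTG hair germ and 742 and 296 in WT hair germ, against 4449.9 and 6761 in Runx1 iTG bulge and 5425 and 7505 in WT bulge, a 13.6-fold fall (log2 difference −3.77, SE 0.29, adjusted p = 2.88e-05). Ltbp1 read 125 and 191 in Runx1 iTG hair germ and 817 and 646 in WT hair germ, against 1344 and 2992 in Runx1 iTG bulge and 3612 and 3501 in WT bulge. It fell 7.97-fold on average (log2 difference −2.99, SE 0.27, adjusted p = 7.12e-05), and the 4 groups did not overlap: transgenic hair germ was lowest, then WT hair germ, transgenic bulge and WT bulge. Its other 2 probe sets were below background on at least 4 of the 8 arrays.

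**Figure D2:**
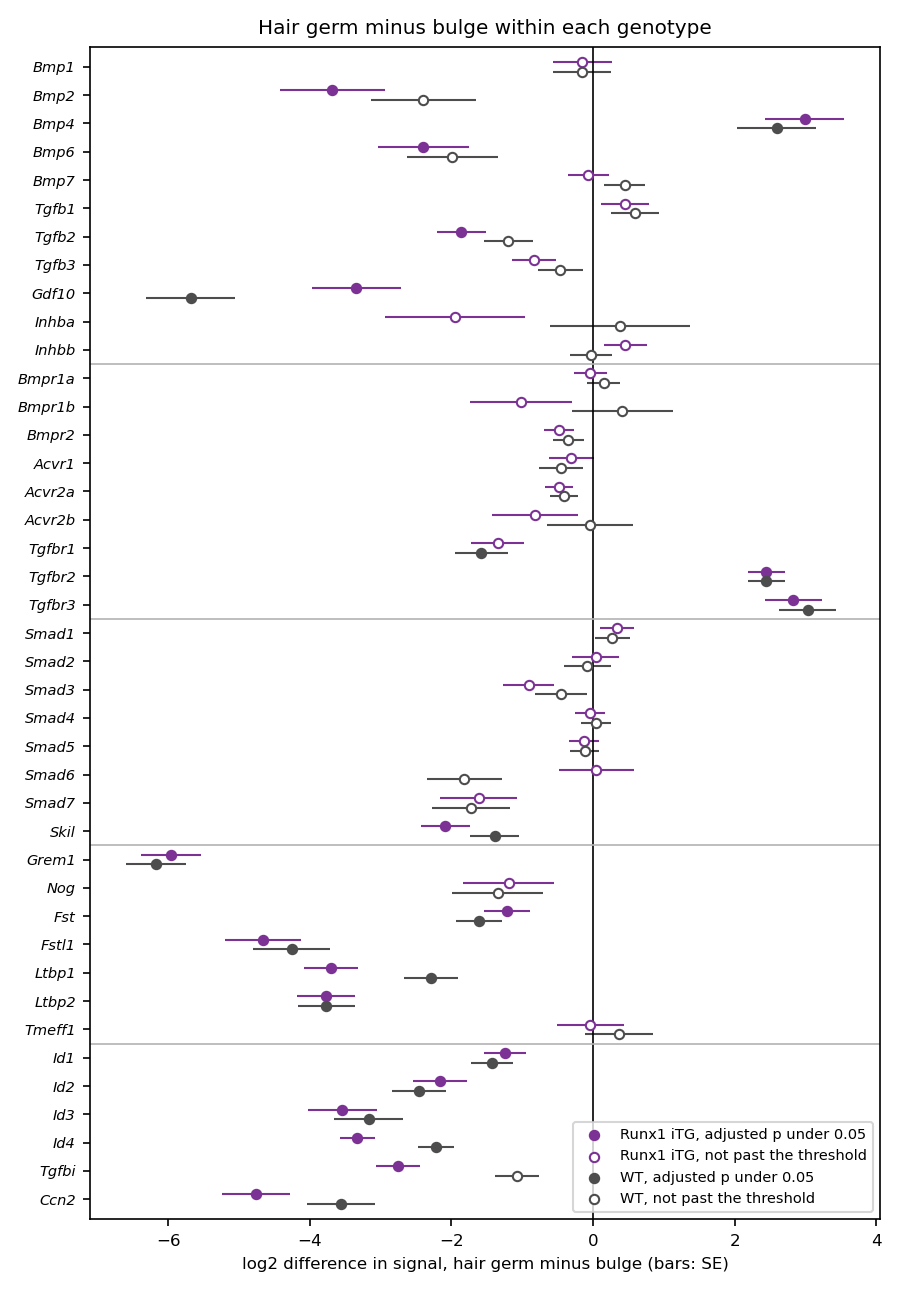
Points give the log2 difference in signal, hair germ minus bulge, of each member in Runx1 iTG (purple) and WT (grey), with bars of 1 SE; filled points had an adjusted p under 0.05. Grem1 lies farthest left at −5.96 and −6.17, and Tgfbr3, Tgfbr2 and Bmp4 are the filled points right of 0.

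Among 11 ligand genes, 1 rose and 4 fell in hair germ. Bmp4, a BMP ligand of the skin, was the one that rose, at 502 and 858 in Runx1 iTG hair germ and 409 and 616 in WT hair germ, against 127 and 53.6 in Runx1 iTG bulge and 60.6 and 114 in WT bulge. Its mean was 574 in hair germ and 82.9 in bulge (log2 difference 2.79, SE 0.39, adjusted p = 0.00101). Bmp2 encodes the ligand closest to Bmp4 and went the other way, at 19.2 and 116 in Runx1 iTG hair germ and 92 and 60.2 in WT hair germ, against 633 and 576 in Runx1 iTG bulge and 332 and 462 in WT bulge. It fell 8.22-fold (log2 difference −3.04, SE 0.52, adjusted p = 0.00304). The replicates of transgenic hair germ were 2.59 apart on the log2 scale for Bmp2, the widest gap of any member in that group. Bmp6, another BMP ligand, read 22.1 and 58.8 in Runx1 iTG hair germ and 40.7 and 46.6 in WT hair germ, against 160.4 and 226 in Runx1 iTG bulge and 194 and 155 in WT bulge, and fell 4.58-fold (log2 difference −2.20, SE 0.45, adjusted p = 0.00812).

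Gdf10 encodes growth differentiation factor 10, also named BMP3B. It read 11.6 and 16.9 in Runx1 iTG hair germ and 31.8 and 31.1 in WT hair germ, against 86.1 and 234 in Runx1 iTG bulge and 1999 and 1311 in WT bulge. Runx1 iTG hair germ lay below background and WT hair germ just at its limit of 31.1, and the hair germ mean over both was below it, so the averaged fall is at least 15.4-fold (log2 difference −4.51, SE 0.45, adjusted p = 0.000122). The 2 bulge groups did not overlap. Tgfb2 encodes the TGF-beta ligand named above as a starter of hair growth, and read 212 and 359 in Runx1 iTG hair germ and 232 and 207 in WT hair germ, against 1032 and 969 in Runx1 iTG bulge and 515 and 489 in WT bulge. It fell in hair germ (log2 difference −1.53, SE 0.24, adjusted p = 0.00198), and the log2 differences of 3 further probe sets were −1.36, −1.71 and −2.03.

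The remaining 6 ligand genes did not pass. Bmp7 differed by 0.19, with a 95% interval of −0.27 to 0.65. Bmp1, a protease that processes procollagen and not a true ligand, differed by −0.15 (−0.81 to 0.50). The differences of Tgfb1 and Tgfb3 were 0.52 and −0.65, with adjusted p of 0.172 and 0.0723. Inhba, an activin subunit gene, was dim, with wide gaps between the hair germ replicates (6.92 and 39.7 in Runx1 iTG hair germ and 27.4 and 113 in WT hair germ, against 64.7 and 63.7 in Runx1 iTG bulge and 45 and 40.3 in WT bulge). For Inhbb, which encodes the other activin beta subunit, the brightest probe set differed by 0.21 and the second by −0.99. Neither passed, and the 2 disagreed in sign.

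Of the 9 receptor genes, 2 rose, 1 fell and 6 did not pass. By the probe set that stands for each gene, the 3 with a call were the TGF-beta receptor genes. Tgfbr2, the type II receptor kinase of TGF-beta, read 3696 and 3317 in Runx1 iTG hair germ and 1948 and 2244 in WT hair germ, against 774 and 533 in Runx1 iTG bulge and 395 and 371 in WT bulge. It rose 5.46-fold in hair germ (log2 difference 2.45, SE 0.18, adjusted p = 2.68e-05), and 1 further bright probe set rose by 2.55. Tgfbr3 encodes betaglycan, a co-receptor that presents TGF-beta2 to the type II receptor. It read 5433 and 6131 in Runx1 iTG hair germ and 4496 and 5218 in WT hair germ, against 536 and 1231 in Runx1 iTG bulge and 429.8 and 819 in WT bulge, a 7.62-fold rise (log2 difference 2.93, SE 0.28, adjusted p = 0.000111), and its second probe set rose by 3.46. Tgfbr1, the type I kinase, went the other way, at 386 and 386 in Runx1 iTG hair germ and 511 and 430.2 in WT hair germ, against 747 and 1294 in Runx1 iTG bulge and 1945 and 1008 in WT bulge (log2 difference −1.46, SE 0.27, adjusted p = 0.00418). Its 2 further probe sets differed by −1.02 and −1.44, of which the second passed over all probe sets.

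Bmpr1a, the main type I BMP receptor of skin, read 5084 and 6313 in Runx1 iTG hair germ and 5952 and 6859 in WT hair germ, against 5073 and 6659 in Runx1 iTG bulge and 5210.0 and 6385 in WT bulge. Its difference was 0.06, with a 95% interval of −0.31 to 0.42. Bmpr2, Acvr2a, Acvr1 and Acvr2b had log2 differences of −0.42, −0.44, −0.38 and −0.43, with adjusted p between 0.0577 and 0.561. Other probe sets of the activin receptor genes did pass over all probe sets, 1 of Acvr2a (−0.65, adjusted p = 0.0439) and 1 of Acvr2b (−2.48, adjusted p = 0.0298, above background on 6 of 8 arrays). Further probe sets of Acvr1 and Bmpr1a disagreed in sign, and none of those passed. By the probe sets that stand for Bmpr2 (adjusted p = 0.0935) and Acvr2a (0.0577), the hair germ arrays still lay below all bulge arrays. The same held for 11.6% of all genes. On a further probe set of Bmpr2, and on the one of Acvr2a that passed, the arrays of the populations overlapped. Bmpr1b was dim, between 22.1 and 91.5 on the 8 arrays (−0.30, adjusted p = 0.751).

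Among the members, none of Smad1 to Smad5, which carry the signal, passed by limma (Smad3 had an unadjusted p under 0.05), and the hair germ and bulge arrays overlapped for each. The 95% interval for Smad4, the shared partner, was −0.34 to 0.34. Smad5 differed by −0.12 (−0.45 to 0.21) and Smad1 by 0.31 (−0.08 to 0.69). Smad2 (−0.54 to 0.50) and Smad3 (−0.68, −1.25 to −0.11) did not pass. The genes that fell were 2 inhibitors of the pathway. Skil, which encodes the SMAD co-repressor SnoN, read 438 and 347 in Runx1 iTG hair germ and 652 and 373 in WT hair germ, against 1543 and 1776 in Runx1 iTG bulge and 1647 and 1018 in WT bulge (log2 difference −1.74, SE 0.25, adjusted p = 0.00107). Smad7, an inhibitory SMAD that targets TGF-beta receptors and is itself induced by the pathway, read 304 and 311 in Runx1 iTG hair germ and 452 and 272 in WT hair germ, against 1743 and 506 in Runx1 iTG bulge and 1572 and 854 in WT bulge. The replicates of Runx1 iTG bulge lay 1.79 apart on the log2 scale, and the averaged fall was called (log2 difference −1.67, SE 0.39, adjusted p = 0.0142). It passed in neither genotype alone (0.101 in Runx1 iTG and 0.0963 in WT). Without WT bulge replicate 1, WT hair germ replicate 2 or transgenic hair germ replicate 1 the Smad7 call was lost (adjusted p = 0.0715, 0.0713 and 0.0533). Smad6, which inhibits BMP receptors, was not called (−0.88, adjusted p = 0.144).

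**Figure D3:**
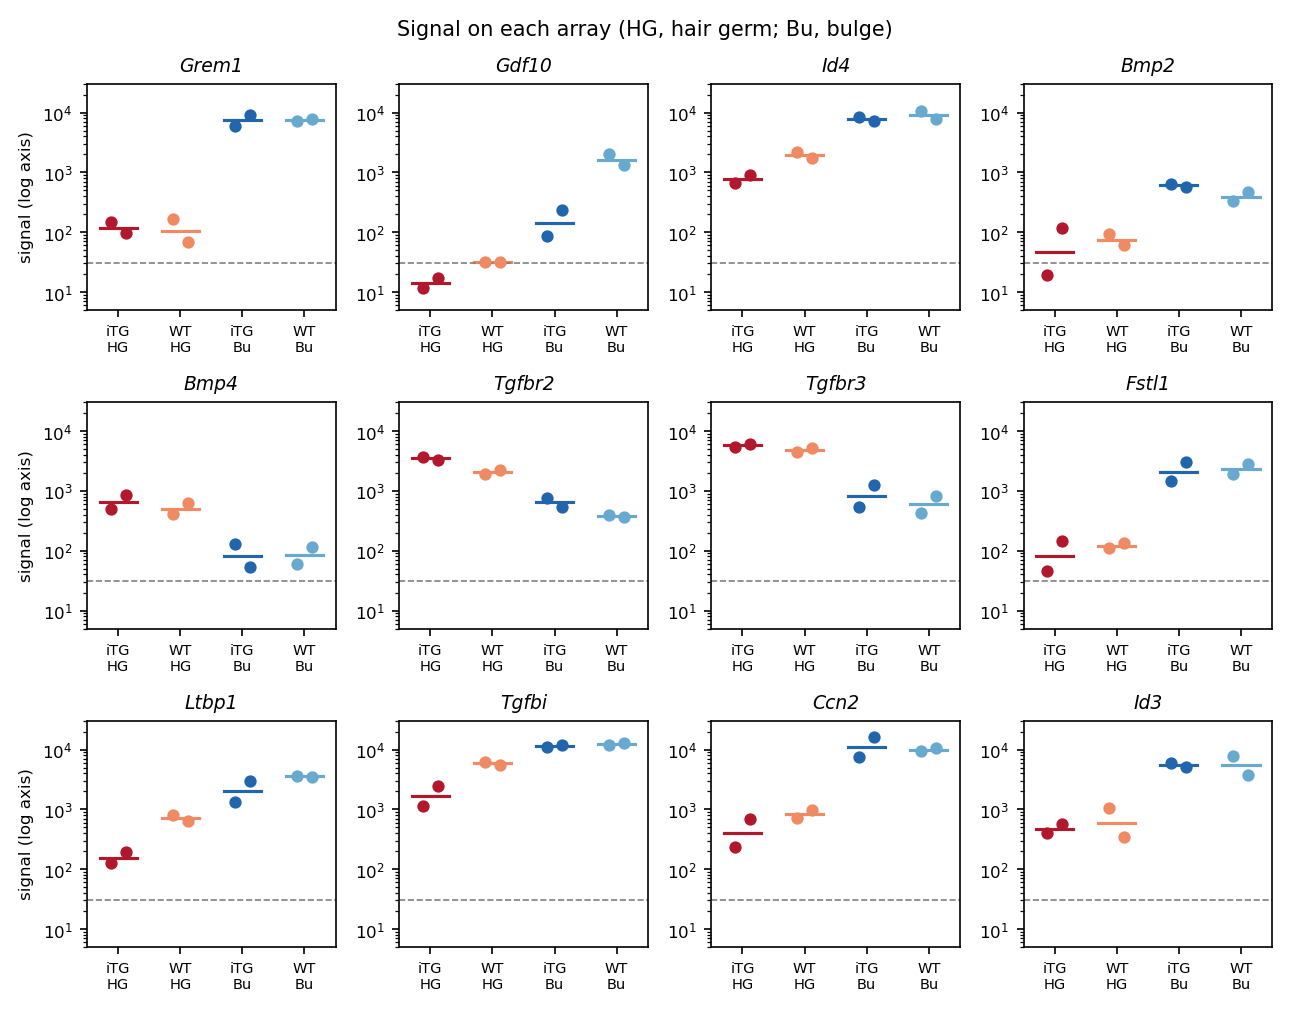
Each panel shows the signal of 1 member on the 8 arrays on a log axis, with 2 points and the mean of the log values (bar) for Runx1 iTG and WT hair germ (HG) and Runx1 iTG and WT bulge (Bu); the dashed line is the background limit of 31.1. Hair germ points lie below bulge points in every panel except those of Bmp4, Tgfbr2 and Tgfbr3, where they lie above.

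The population differences were also taken within each genotype, and these 2 comparisons share no array. In Runx1 iTG 16 members fell and 3 rose (46.3%), where 5.26% of all genes were lower and 4.5% higher, 9.76% in all. In WT 13 fell and 3 rose (39%), where 3.79% were lower and 3.14% higher, 6.93% in all. The WT count was 8 without WT bulge replicate 1, and 9 without WT bulge replicate 2 or without WT hair germ replicate 2; the Runx1 iTG count was 11 without Runx1 iTG bulge replicate 2. The call was shared by 15 members, and the share of all genes called in both genotypes was not taken. Beside them, Bmp2, Bmp6, Tgfb2 and Tgfbi were called in Runx1 iTG and Tgfbr1 in WT, and for none of these was the change with genotype called. The sign was the same for 32 of the 41 members (78.0%), against 70.5% of all genes. Across the 41 members, which are not independent replicates, Pearson's r between the 2 sets of differences was 0.91, against 0.59 over all genes; both sets share the platform and the sort.

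Other genes of the pathway were read from a second list. Of 47 listed, 41 were analysed here, and 14 of these fell and 1 rose in hair germ, 36.6% against 18.3% of all genes. The 5 with the smallest p were Msx2, Fstl3, Smad9, Ltbp4 and Nbl1. Msx2, a homeobox target of BMP, read 118 and 235 in Runx1 iTG hair germ and 45.4 and 109 in WT hair germ, against 1482 and 1187 in Runx1 iTG bulge and 1128 and 949.9 in WT bulge, a 10.8-fold fall (log2 difference −3.44, SE 0.34, adjusted p = 0.000132). Smad9, the third SMAD of the BMP branch, read 3.8 and 16.2 in Runx1 iTG hair germ and 6.74 and 33.6 in WT hair germ, against 266 and 366 in Runx1 iTG bulge and 308 and 349.6 in WT bulge. With hair germ below background on average, its fall was at least 10.3-fold (adjusted p = 0.000792). Fstl3 binds activins (log2 difference −1.44, SE 0.17, adjusted p = 0.000377), Ltbp4 is a further latency protein (log2 difference −1.36, SE 0.19, adjusted p = 0.000854), and Nbl1 is a BMP antagonist of the DAN family (log2 difference −1.50, SE 0.26, adjusted p = 0.0034). The gene that rose was Rgmb, a BMP co-receptor (log2 difference 0.78, SE 0.22, adjusted p = 0.0332), whose groups overlapped. Not every antagonist of this list differed. Sostdc1 had means of 19180 in WT hair germ and 21050 in WT bulge, and did not pass in WT (−0.13, adjusted p = 0.87).

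Some markers of other cells also differed between the populations. In the averaged contrast, 9.11% of all genes were called lower in hair germ. Of 8 fibroblast genes, 4 fell in hair germ, namely Col1a1, Col1a2, Col3a1 and Twist2. Col1a1 read 151 and 445 in Runx1 iTG hair germ and 138 and 95.7 in WT hair germ, against 7738 and 6375 in Runx1 iTG bulge and 4637 and 3216 in WT bulge. The summed fibroblast signal was 441 to 817 in Runx1 iTG hair germ and 316 to 455 in WT hair germ, against 9212 to 9351 in Runx1 iTG bulge and 4863 to 5773 in WT bulge. Averaged over both genotypes, the fibroblast genes Lum (6.49 in hair germ and 11.2 in bulge) and Twist2 (4.25 and 21.4) were below background in both populations. So were the dermal papilla genes Sox2 (5.58 in hair germ and 4.06 in bulge) and Corin (18.4 and 11). The fibroblast genes Pdgfra (59 in hair germ and 16 in bulge) and Pdgfrb (88.9 and 59.7) were brighter in hair germ, and neither was called. Of 7 dermal papilla genes, 1 fell (Crabp1) and the sum was 206 to 243 in Runx1 iTG hair germ and 189 to 247 in WT hair germ, against 641 to 1553 in Runx1 iTG bulge and 933 to 1011 in WT bulge. Crabp1 alone made up most of these bulge sums, at 383 and 1321 in Runx1 iTG bulge and 774 and 721 in WT bulge. All 5 suprabasal keratinocyte genes fell too, with sums of 14250.1 to 18231 in Runx1 iTG hair germ and 19013 to 24683 in WT hair germ, against 29455 to 50145 in Runx1 iTG bulge and 44125 to 48551 in WT bulge. Of 7 melanocyte, 7 immune and 5 endothelial genes, 2 (Dct and Mitf), 1 (Lyz2) and 1 (Tek) fell, and 0 rose. The part of such cells in the members' differences was not tested.

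The second question was whether these genes differed between Runx1 iTG and WT mice, all fed doxycycline over 1 day. None of the 41 members passed in hair germ, in bulge or in their average by limma. At an unadjusted p under 0.05 the counts were 6, 4 and 9 of 41, where 6.78%, 5.96% and 8% of all genes had such a p. Few genes passed over the whole table: 0.0275% in hair germ, 0.022% in bulge and 0.0495% on average. In hair germ the median of the members was −0.19, against 0.03 over all genes, with 26 of 41 lower. In bulge the medians were 0.03 and 0.02, and 18 of 41 members were lower. The signs of the 2 populations matched for 21 of the 41 members (51.2%), against 55.1% of all genes. Several marker sums also separated the genotypes with no overlap. Of all single genes, 35.7% did so in hair germ and 33.8% in bulge, with 2 arrays in each group. Sums of the bulge, hair germ and immune lists were lower in Runx1 iTG than in WT in both populations. They add linear signals, so the brightest genes weigh most: Krt15 in the bulge list, Krt14 and Krt5 in the hair germ list and Cd74 in the immune list. Single genes of a list can differ from its sum. Of the hair germ list, Lef1 was higher in Runx1 iTG hair germ with no overlap (log2 difference 0.49), and Krt5 was lower with no overlap (−0.40). Krt14 (−0.12), Cdh3 (−0.57) and Lgr5 (−0.23) overlapped there, and the Shh means were below background. In bulge, Cdh3 was lower with no overlap (−0.51), and Krt14, Krt5, Lef1 and Shh overlapped. Of the immune genes, Ptprc, Cd207 and Itgam had means below background in all 4 groups. Cd3g was higher in Runx1 iTG bulge, with overlap (log2 difference 0.99). The bulge list summed to 19250.1 to 26238 in Runx1 iTG hair germ, against 30135 to 35610.4 in WT hair germ, and to 71245 to 71318 in Runx1 iTG bulge, against 78793 to 87182 in WT bulge. The immune sums were 413 to 562 in Runx1 iTG hair germ, against 599.7 to 663 in WT hair germ, and 381 to 605 in Runx1 iTG bulge, against 671 to 844 in WT bulge. In hair germ alone the suprabasal sums were lower in Runx1 iTG, and in bulge alone the fibroblast sums were higher. The endothelial sums were higher in Runx1 iTG hair germ (70.2 to 136) than in WT hair germ (47.2 to 61.1). Of these 5 genes, however, only Cdh5 had a mean above background in Runx1 iTG hair germ, and 0 had one in WT hair germ. Among the bulge markers, the hair germ differences of Nfatc1, Sox9, Lhx2 and Krt15 were −1.21, −0.86, −0.80 and −0.56 with no overlap, and none passed (adjusted p between 0.151 and 0.671). Itga6 (−0.27), Lgr5 (−0.23) and Tcf7l1 (0.28) overlapped there, and the Cd34 means were below background. In bulge, Sox9 (0.29) and Tcf7l1 (0.79) were higher in Runx1 iTG with no overlap. Krt15 (−0.25), Lhx2 (−0.52), Nfatc1 (−0.27) and Lgr5 (−0.34) were lower in bulge with no overlap. Like Ltbp1, Tgfbi and Id4 below, Nfatc1, Sox9, Lhx2 and Krt15 had lower signal in Runx1 iTG hair germ. The part of these markers in the values below was not tested.

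In hair germ, the lowest p belonged to Ltbp1 and Tgfbi. Ltbp1 read 125 and 191 in Runx1 iTG hair germ, against 817 and 646 in WT hair germ. That is a 4.7-fold lower mean with no overlap (log2 difference −2.23, SE 0.38, adjusted p = 0.124). Tgfbi read 1153 and 2434 in Runx1 iTG hair germ, against 6205 and 5561 in WT hair germ (log2 difference −1.81, SE 0.31, adjusted p = 0.124). Without transgenic hair germ replicate 2 the Tgfbi difference was −2.35 and passed (adjusted p = 0.0408). Its other 3 probe sets differed by −1.29, −1.45 and −2.06. Id4 read 668 and 897 in Runx1 iTG hair germ, against 2164 and 1744 in WT hair germ (log2 difference −1.33, SE 0.25, adjusted p = 0.182), and its other 2 probe sets differed by −1.11 and −1.19.

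Inhbb had a positive difference that did not pass, at 3689.6 and 2319.8 in Runx1 iTG hair germ, against 1390.2 and 1449.5 in WT hair germ (log2 difference 1.04, SE 0.30, adjusted p = 0.462), and its second probe set differed by 1.32. It was the only member whose 4 transgenic arrays all lay above the 4 WT arrays, something seen in this direction for 1.47% of all genes (0.80, adjusted p = 0.303 in the average). For 16 members the 2 genotypes did not overlap in hair germ, 6 higher and 10 lower, where 19.9% and 15.8% of all genes did so, 35.7% in all. The 95% interval of the Grem1 difference in hair germ was −0.77 to 1.12.

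In bulge, Gdf10 differed most. It read 86.1 and 234 in Runx1 iTG bulge, against 1999 and 1311 in WT bulge, an 11.4-fold lower mean (log2 difference −3.51, SE 0.63, adjusted p = 0.272). Both transgenic arrays were far below both WT arrays, yet replicate 1 minus replicate 2 was −1.44 on the log2 scale in Runx1 iTG bulge. Gdf10 was named by 1 probe set, so there was no second reading. In hair germ Gdf10 was below background in Runx1 iTG and at its limit in WT, at 11.6 and 16.9 in Runx1 iTG hair germ, against 31.8 and 31.1 in WT hair germ. Its genotype difference in hair germ was therefore not measured above background, and no size is given for how it differs from that in bulge.

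The next members by p in bulge had positive differences that did not pass. Tgfb2 read 1032 and 969 in Runx1 iTG bulge, against 515 and 489 in WT bulge (log2 difference 1.00, SE 0.34, adjusted p = 0.739), and of its 3 further probe sets 2 were higher and 1 was at −0.04. Tgfbr2 read 774 and 533 in Runx1 iTG bulge, against 395 and 371 in WT bulge (log2 difference 0.75, SE 0.26, adjusted p = 0.739), and its difference in hair germ was 0.74. The further bright probe set of Tgfbr2 did not show the bulge difference. It read 120 and 95.5 in Runx1 iTG bulge, against 98.4 and 108 in WT bulge (0.05), and differed by 1.27 in hair germ. Tmeff1 read 415 and 204 in Runx1 iTG bulge, against 119 and 148 in WT bulge (log2 difference 1.13, SE 0.48, adjusted p = 0.79). In bulge 17 members did not overlap between genotypes, 10 higher and 7 lower, where 17.3% and 16.4% of all genes did so, 33.8% in all. Grem1 differed by −0.03 (−0.98 to 0.91) and Id4 by −0.22 (−0.78 to 0.35) in bulge.

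**Figure D4:**
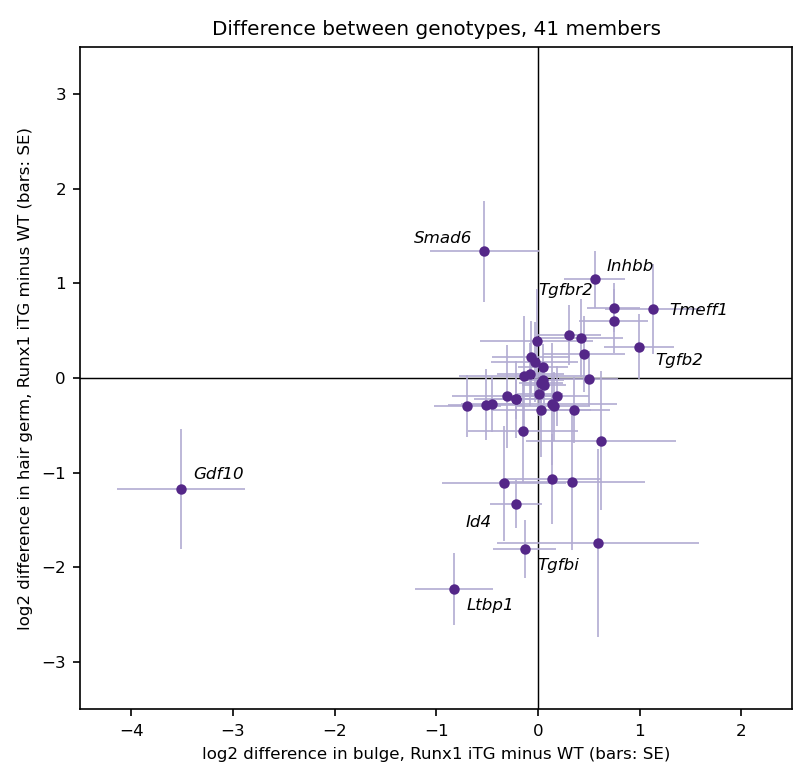
Each point is 1 of the 41 members; the x axis gives its log2 difference, Runx1 iTG minus WT, in bulge and the y axis the same in hair germ, with bars of 1 SE. Gdf10 stands apart on the left at −3.51 (its hair germ value rests on signals at or below the background limit), Ltbp1 and Tgfbi at the bottom at −2.23 and −1.81, and no point passed the threshold on either axis.

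The difference between the genotype effects of the 2 populations was not called for any member (limma, 0 of 41, and 0 of all genes). At an unadjusted p under 0.05 it held for 5 members, Tgfbi, Id4, Gdf10, Ltbp1 and Smad6, and for 4.61% of all genes. For Gdf10 the hair germ side rests on signals at or below the background limit. Smad6 read 582 and 244 in Runx1 iTG hair germ, against 113 and 197 in WT hair germ, and 521 and 255 in Runx1 iTG bulge, against 634 and 434 in WT bulge. The 2 transgenic arrays of each population were wide apart for Smad6, and its interaction was 1.86 (SE 0.76). Of the 41 other pathway genes, 0 passed between genotypes in either population by limma. At an unadjusted p under 0.05 there were 4 in hair germ and 2 in bulge, where 6.78% and 5.96% of all genes had such a p.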

How the data were processed

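Gene expression was measured on 8 Affymetrix arrays, 1 per sorted sample, after cDNA amplification from a few nanograms of total RNA, per the labels' protocols. The authors deposited a linear intensity for each of 45101 probe sets, whose mean is 500 on each array once the top and bottom 2% are left out. The sources used here do not name the summarising program. Here 64 control probe sets were removed and the arrays scaled to 1 shared 75th percentile. A floor of 2.41, the lowest 5th percentile among the arrays, replaced the 3.48% of values below it before log2 was taken. In the platform annotation 34958 probe sets had 1 gene symbol, 932 several and 9160 none, and 34754 matched RefSeq by Entrez identifier. The brightest probe set stood for a gene, which left 18193 genes.

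The linear model had 4 group means, used all 8 arrays and allowed for an intensity trend (limma 3.58.1, R 4.3.3; 4 residual and 9.87 total degrees of freedom). A gene was called at a Benjamini-Hochberg adjusted p under 0.05 over all genes; adjusted p in the text come from this fit unless another is named. Intervals are 95% limits of that fit. The number of arrays limits the precision: the median SE of a genotype difference was 0.52. Members, lists, contrasts and alternatives were chosen with earlier results of these data known. Members given array by array are Grem1, Gdf10 and Id4, all called members, and per contrast up to 4 by p whose groups do not overlap; a few more were added as examples of a role. The labels call the samples biological replicates without saying how animals were pooled, so p-values measure the spread between these samples. The fit was tested on simulated data. No set test was run.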

Additional observations from a re-analysis of the deposited data

How the results depend on the processing

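Over 16 alternatives, the averaged hair germ minus bulge contrast kept 20 to 23 called members (20 to 22 when 1 array was left out), and of 21 called members only Smad7 and Tgfbr1 lost a call. The median over all genes was −0.09 in this contrast, 0.03 after quantile normalization and −0.15 on the deposited scale. Smad7 was lost in 4 alternatives (adjusted p up to 0.0735) and Tgfbr1 with the day 20 arrays only (0.0701). No member named for a difference between populations, averaged or within a genotype, or between genotypes changed sign in any alternative; the interaction of single members was not followed. Within a genotype the count was more fragile. In WT it was 16, and 8 without the intensity trend, with 8 to 16 when 1 array was left out (lowest without WT bulge replicate 1). In Runx1 iTG it was 19, and 12 without the trend, 12 with only the groups compared and 9 with the day 20 arrays only, with 11 to 18 when 1 array was left out (11 without transgenic bulge replicate 2). The day 20 fit has 1 array in each Runx1 iTG group and takes its spread from the WT groups, so its count shows what 1 array against 1 can call and not whether age matters. A group left with 1 array is likewise assumed to vary like the others. Ccn2, Fstl1, Grem1, Id4 and Tgfbr3 kept their call within both genotypes in every alternative. Fewer arrays entered the fits that left arrays out; the cause of the loss without the trend was not tested.

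For Runx1 iTG minus WT the count of members stayed at 0 in bulge, on average and for the interaction in every alternative run, and was 0 to 1 in hair germ when 1 array was left out. The 1 was Tgfbi without transgenic hair germ replicate 2. The adjusted p of Gdf10 in bulge ranged from 0.115 to 0.939, and of Ltbp1 in hair germ from 0.0750 to 0.839. The median of the members in hair germ ranged from −0.29 to 0.02 when 1 array was left out. With replicate number as a block, which here is also sex, 21 members were called on average, 17 in WT and 19 in Runx1 iTG for hair germ minus bulge, and 0 for each genotype contrast. Replicate differences correlated between groups at −0.03 to 0.08, so the numbers were not taken as pairs.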

Other observations

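Among pathway genes outside the 41, Acvr1c, which encodes the type I receptor ALK7 for nodal and activins, was singled out after its values were seen. It has 3 probe sets, of which the brightest was read. It read 153 and 173 in Runx1 iTG hair germ, against 5.84 and 12.1 in WT hair germ. Both WT arrays and the mean of both bulge groups lay below background, so the transgenic hair germ signal was at least 5.23-fold that of WT. The difference did not pass over all genes (log2 4.28, SE 0.80, adjusted p = 0.168). In bulge Acvr1c read 37.3 and 24.8 in Runx1 iTG bulge, against 13.2 and 28.7 in WT bulge.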
